A study of Mus musculus with 6 samples.

Results

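Type 1 innate lymphoid cells (ILC1) are tissue-bound relatives of natural killer (NK) cells. The 8 genes described here, Itga1, Gpr55, Hic1, Zfp683, Inpp4b, Rora, Ahr and Thy1, are known for higher expression in ILC1 or in tissue-resident lymphocytes than in circulating NK cells, and were taken by gene symbol from the deposited count table. They are 8 of its 50686 genes, and all 8 were among the 15458 genes tested. RNA of sorted mouse spleen NK cells was sequenced in 6 libraries. The 3 WT libraries came from healthy, wild type C57BL/6J mice. The 3 Eumyc libraries came from C57BL/6J mice given Eumyc lymphoma, a Myc-driven B cell lymphoma, by intravenous injection and killed at day 14. The genotype of these hosts was not labelled. Every sort took cells with NK1.1 and without the T cell receptor beta chain, after B cell depletion and capture on CD49b beads. For Eumyc the cells that the beads had not bound were sorted as well. Lymphoma and this difference in the sort cannot be told apart in any comparison below. Whether the libraries of a group were separate animals was not stated, so each p-value measures the spread between these libraries, which may be technical.

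NK cells and ILC1 share NK1.1 and the transcription factor T-bet. In mice, NK cells typically carry CD49b (gene Itga2) and EOMES, whereas ILC1 typically carry CD49a (gene Itga1) and lack CD49b. Resident lymphocytes also shut down receptors and factors, such as S1PR1 and KLF2, that let cells leave a tissue for the blood. In bulk RNA, fewer cells of a type and less RNA per cell cannot be told apart.

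The libraries held 16407611 to 66615602 counts, and the Eumyc libraries were all deeper than the WT libraries. The lowest count of any member in any library was 81. The sorted cells carried NK transcripts in every library. Ncr1, an NK receptor gene, ranged from 1071 to 1396 CPM (counts scaled to library size with the trimmed mean of M values, TMM), and Eomes from 425 to 677 CPM. The 8 genes are called ILC1 and residency genes after what is known of them, not because these libraries were found to hold ILC1. WT 3 held more cell division transcripts than WT 1 and WT 2, and a list of 12 such genes summed to 732 CPM there against 338 and 315 CPM. Eumyc 1 held the most monocyte and macrophage transcripts, with Csf1r at 344 CPM against 145 in Eumyc 2 and 191 in Eumyc 3.

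Of the 8 genes, 7 were higher in Eumyc and 0 were lower at a Benjamini-Hochberg adjusted p under 0.05 in edgeR's quasi-likelihood test. Over all tested genes 25.7% were called higher and 23.1% lower. The 8 genes had a median log2 fold change of 1.50, where the median over all tested genes was 0.00. For the same 7 genes every Eumyc library lay above every WT library, as it did for 31.3% of all tested genes. All Eumyc libraries lay below all WT libraries in another 28.9%, which makes 60.2% in either direction. Rora was the gene that did not pass. The genes had been listed with earlier results of these data known, so the count describes them and is no independent test of the list.

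Itga1 encodes CD49a, the alpha chain of a collagen-binding integrin that pairs with integrin beta 1. It was at 9.81, 8.76 and 13.2 CPM in WT 1, 2 and 3, against 37.3, 27.9 and 39.7 CPM in Eumyc 1, 2 and 3. All Eumyc libraries stood above all WT libraries, and Eumyc 2 was the lowest of them. The mean rose from 10.6 ± 2.31 to 34.9 ± 6.25 CPM (SD, n = 3 each), a log2 fold change of 1.74 ± 0.18 (SE, edgeR adjusted p = 0.000310).

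Gpr55 encodes a G protein-coupled receptor for lysophosphatidylinositol. It was at 4.80, 3.14 and 4.85 CPM in WT, against 31.0, 41.5 and 45.8 CPM in Eumyc 1, 2 and 3. The groups did not overlap, their ratio was the largest of the 8 genes, and Eumyc 1 was the lowest Eumyc library. Gpr55 rose 9.41-fold, from 4.26 ± 0.975 to 39.4 ± 7.62 CPM (SD, n = 3 each, log2 fold change 3.23 ± 0.21 SE, edgeR adjusted p = 8.01e-05). Of the tested genes, 2.87% had a log2 fold change at least as high.

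Hic1 encodes a zinc finger transcriptional repressor. It was at 8.55, 11.8 and 9.29 CPM in WT, against 39.5, 33.3 and 44.7 CPM in Eumyc 1, 2 and 3. The groups did not overlap, and the Eumyc libraries differed among themselves by 1.34-fold from lowest to highest. Hic1 rose from 9.89 ± 1.73 to 39.1 ± 5.69 CPM (SD, n = 3 each, log2 fold change 1.98 ± 0.15 SE, edgeR adjusted p = 0.000151).

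**Figure D1:**
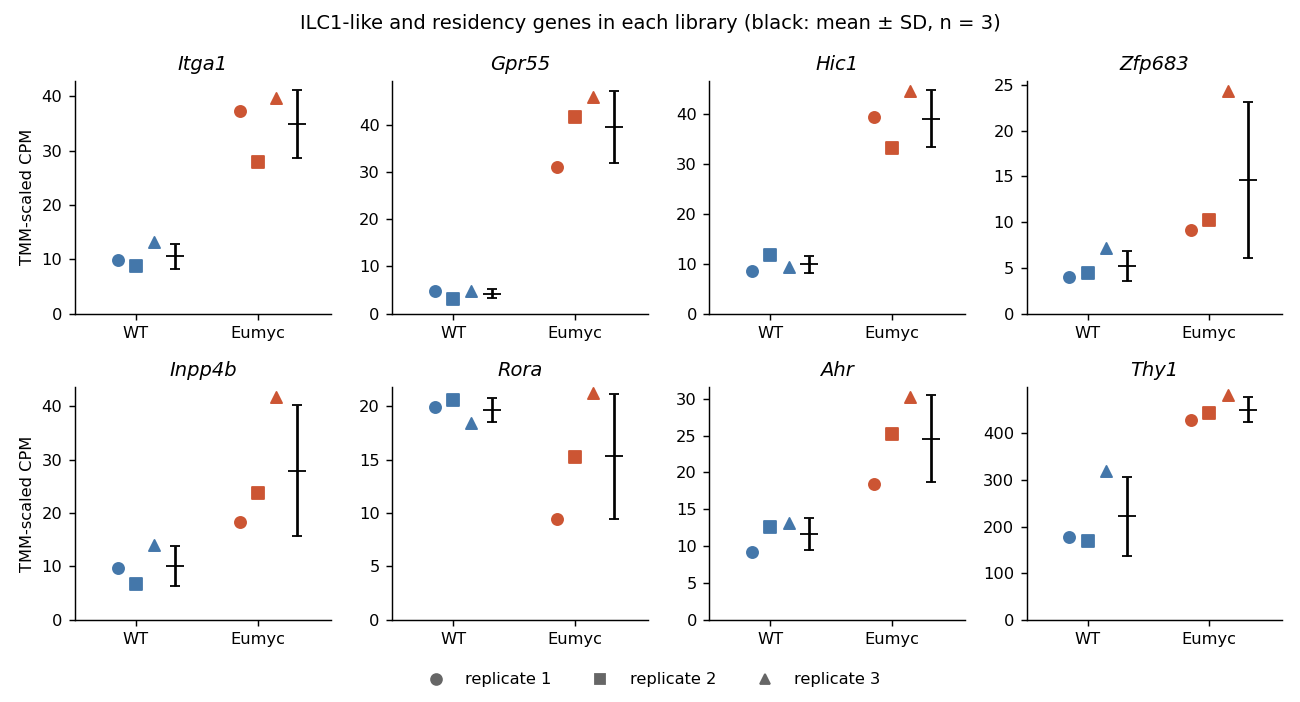
TMM-scaled CPM of the 8 genes (vertical axes, each from 0) in the 3 WT and 3 Eumyc libraries, with marker shapes for replicate numbers and black bars for mean ± SD. Itga1, Gpr55 and Hic1 separate the groups with Eumyc libraries close together, whereas Zfp683, Inpp4b and Rora spread widely within Eumyc, with Eumyc 3 highest.

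The 250 bases before the annotated start of these 3 genes, each higher in Eumyc, show the DNA next to which transcription begins. The sequences are from RefSeq on GRCm38.p6, read 5′ to 3′ on the gene's strand, which is the minus strand for all 3. They lie at chr13:115101965-115102214 for Itga1, chr1:85961056-85961305 for Gpr55 and chr11:75170256-75170505 for Hic1. RefSeq lists a second start for Hic1, which lies inside the span of Hic1 in the deposited table. The starts shown for Hic1 and Gpr55 lie outside the spans of these genes in that table. Capitals mark matches, on either strand, to the AHR-ARNT core GCGTG, the ROR site AGGTCA, the RUNX core TGTGGT or the T-box core AGGTGT.
Itga1: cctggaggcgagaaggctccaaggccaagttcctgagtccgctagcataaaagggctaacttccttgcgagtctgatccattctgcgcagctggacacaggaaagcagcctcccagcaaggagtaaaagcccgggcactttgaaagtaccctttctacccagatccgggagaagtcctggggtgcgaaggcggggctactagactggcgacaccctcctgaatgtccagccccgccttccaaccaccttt
Gpr55: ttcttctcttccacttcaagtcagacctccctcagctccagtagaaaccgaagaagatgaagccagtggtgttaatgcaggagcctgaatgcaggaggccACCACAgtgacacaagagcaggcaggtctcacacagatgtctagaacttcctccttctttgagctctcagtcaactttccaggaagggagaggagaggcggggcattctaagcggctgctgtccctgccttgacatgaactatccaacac
Hic1: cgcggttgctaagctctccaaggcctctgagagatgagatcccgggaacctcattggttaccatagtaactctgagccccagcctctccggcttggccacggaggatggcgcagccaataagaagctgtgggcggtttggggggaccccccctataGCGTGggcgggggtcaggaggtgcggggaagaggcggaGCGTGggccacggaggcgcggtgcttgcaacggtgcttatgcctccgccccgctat
The Itga1 window held no match to any of the 4 motifs. The Gpr55 window held 1 RUNX core, on the opposite strand, which 14.0% of the 32851 promoter windows of this length also hold on either strand. The Hic1 window held 2 AHR-ARNT cores, 94 and 56 bases before the start, and 28.2% of all windows hold at least 1. The window of the second Hic1 start, not shown, held this core 84 bases before that start. So did the windows of Inpp4b, 51 bases before its start, and of Rora, which did not pass, 167 bases before its start. The ROR site occurs in 14.0% and the T-box core in 11.8% of all windows. No matches overlapped each other in the windows shown, and a match is a run of letters, not a bound site. The windows differed in base composition, with 57.6% G and C for Itga1, 52.0% for Gpr55 and 64.4% for Hic1, against a median of 52.4% over all windows. CpG dinucleotides numbered 10, 3 and 18 in the same order, against a median of 6.

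Among the other transcription factors of the list, Zfp683 encodes HOBIT, a zinc finger factor of resident lymphocytes related to PRDM1. Zfp683 was at 4.04, 4.46 and 7.13 CPM in WT, against 9.19, 10.2 and 24.4 CPM in Eumyc 1, 2 and 3. The groups did not overlap, yet Eumyc 3 stood far above Eumyc 1 and Eumyc 2. Zfp683 rose from 5.21 ± 1.67 to 14.6 ± 8.50 CPM (SD, n = 3 each, log2 fold change 1.52 ± 0.40 SE, edgeR adjusted p = 0.0136). The call was lost without WT 1 (edgeR adjusted p = 0.0633) or WT 2 (edgeR adjusted p = 0.0619), and the log2 fold change was 0.92 without Eumyc 3.

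Ahr encodes the aryl hydrocarbon receptor, a ligand-activated factor that liver ILC1 and gut lymphocytes depend on. Ahr was at 9.24, 12.6 and 13.2 CPM in WT, against 18.4, 25.2 and 30.2 CPM in Eumyc 1, 2 and 3. Every Eumyc library was above every WT library. The mean rose from 11.7 ± 2.12 to 24.6 ± 5.93 CPM (SD, n = 3 each, log2 fold change 1.08 ± 0.20 SE, edgeR adjusted p = 0.00294).

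Rora encodes the nuclear receptor ROR alpha, known for its role in ILC2 and expressed in ILC1. It was at 19.9, 20.6 and 18.4 CPM in WT, against 9.46, 15.2 and 21.2 CPM in Eumyc 1, 2 and 3. The WT libraries lay close together, inside the range of the Eumyc libraries. The difference did not pass, with 19.6 ± 1.14 CPM in WT and 15.3 ± 5.86 CPM in Eumyc (SD, n = 3 each, log2 fold change -0.36 ± 0.25 SE, edgeR adjusted p = 0.261). Without Eumyc 3 the log2 fold change was -0.66 and passed (edgeR adjusted p = 0.0350), and without Eumyc 1 it was -0.09 (edgeR adjusted p = 0.663).

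Inpp4b encodes a lipid phosphatase that removes the 4-phosphate from PI(3,4)P2 and belongs to known residency signatures. It was at 9.63, 6.68 and 14.1 CPM in WT, against 18.3, 23.7 and 41.8 CPM in Eumyc 1, 2 and 3. WT 3 was the highest WT library and Eumyc 3 the highest of all. Inpp4b rose from 10.1 ± 3.72 to 28.0 ± 12.3 CPM (SD, n = 3 each, log2 fold change 1.49 ± 0.35 SE, edgeR adjusted p = 0.00795).

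Thy1 encodes CD90, a GPI-anchored surface protein of T cells, innate lymphoid cells and a subset of NK cells. It was at 178, 169 and 318 CPM in WT, against 429, 442 and 482 CPM in Eumyc 1, 2 and 3. WT 3, the WT library with most cell division transcripts, stood between the other WT libraries and Eumyc. Thy1 rose from 222 ± 84.0 to 451 ± 27.4 CPM (SD, n = 3 each, log2 fold change 1.03 ± 0.22 SE, edgeR adjusted p = 0.00530), and by 1.39 on the log2 scale without WT 3. Between the groups, all 12 cell division genes were higher in Eumyc, where 25.7% of all tested genes were. The list summed to 315 to 732 CPM in WT and 2232 to 3090 CPM in Eumyc, with a median log2 fold change of 3.50. The part of cell division in the differences of Thy1 and the other members was not tested.

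In the authors' deposited table, 7 of the 8 genes were higher in Eumyc at an adjusted p under 0.05, as were 30.5% of the 10292 genes listed there. In the authors' deposited table Gpr55 stood at row 16 of 10292, with a log2 fold change of 2.98 and an adjusted p of 1.81e-49. The authors' deposited table gave Hic1 1.87, Itga1 1.62, Zfp683 1.18, Inpp4b 1.04, Ahr 0.99 and Thy1 0.86 on the log2 scale. Rora had a log2 fold change of -0.33 and an adjusted p of 0.211 in the authors' deposited table.

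Levels of different genes were compared as CPM per kilobase of exon. In WT, Thy1 was the highest at 74.0 ± 28.1, followed by Zfp683 at 3.54 ± 1.14 and Hic1 at 2.64 ± 0.462 CPM per kilobase (SD, n = 3). Ahr at 1.89 ± 0.345, Rora at 1.50 ± 0.0868, Gpr55 at 1.15 ± 0.262, Itga1 at 0.777 ± 0.169 and Inpp4b at 0.775 ± 0.285 CPM per kilobase came next (SD, n = 3). Neighbours in this order overlapped between libraries, except Thy1 with Zfp683, Hic1 with Ahr and Rora with Gpr55. In Eumyc the order changed. Thy1 stayed highest at 151 ± 9.14, and Gpr55 at 10.6 ± 2.05, Hic1 at 10.4 ± 1.52 and Zfp683 at 9.92 ± 5.78 CPM per kilobase followed with overlapping libraries (SD, n = 3). Ahr was at 3.99 ± 0.961, Itga1 at 2.57 ± 0.459, Inpp4b at 2.14 ± 0.943 and Rora, now the lowest, at 1.17 ± 0.449 CPM per kilobase (SD, n = 3). Ahr and Itga1 did not overlap, Itga1 and Inpp4b did, and so did Inpp4b and Rora.

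**Figure D2:**
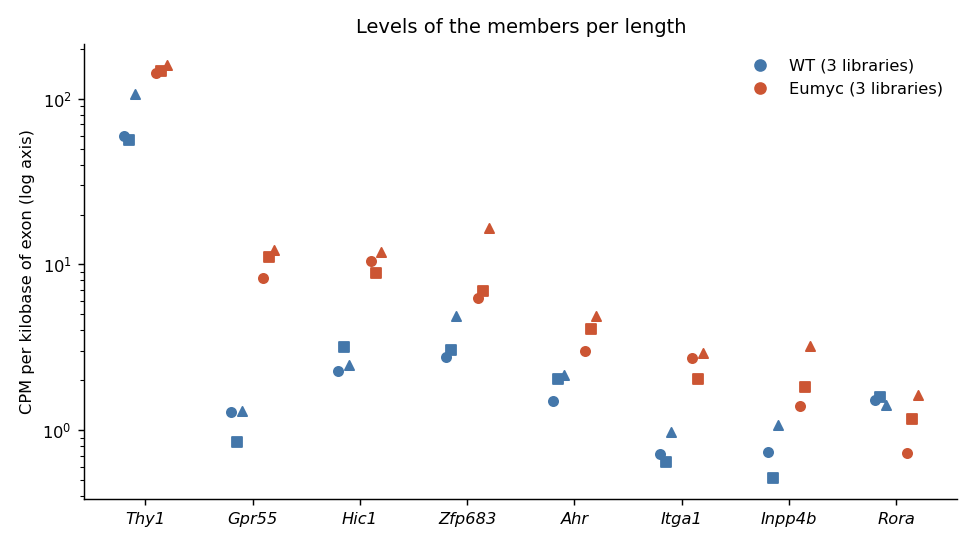
CPM per kilobase of exon (log axis) of the 8 genes in each WT (blue) and Eumyc (red) library, with marker shapes for replicates 1 (circle), 2 (square) and 3 (triangle). Thy1 lies at or above 56.3 CPM per kilobase in every library, and Gpr55 moves from among the lowest in WT to the level of Hic1 and Zfp683 in Eumyc.

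The CD49a to CD49b balance was followed as the ratio of Itga1 to Itga2. Per length, Itga1 was at 1.05%, 0.922% and 1.68% of the Itga2 level in WT 1, 2 and 3 and at 5.69%, 3.86% and 7.16% in Eumyc 1, 2 and 3. The groups did not overlap, and Itga2 remained the more abundant transcript in every library. The log2 ratio was higher in Eumyc by 2.15, a 4.45-fold difference, in a two-sided exact permutation test with p = 0.1, the smallest p that 3 against 3 libraries allow. Itga2 itself fell from 277 ± 28.3 to 200 ± 26.1 CPM (SD, n = 3 each, edgeR adjusted p = 0.00750). CD49b was also the bead target of the enrichment. Itgb1, the beta chain that both alpha chains share, was at 1081 and 951 CPM on average and did not pass (edgeR adjusted p = 0.0534). The log2 ratio of Tbx21, which encodes T-bet, to Eomes was higher in Eumyc by 0.26, with WT 3 inside the Eumyc range (two-sided exact permutation p = 0.2). Eomes fell from 637 ± 62.6 to 486 ± 53.5 CPM (SD, n = 3 each, edgeR adjusted p = 0.0126), and Tbx21 at 554 ± 9.83 and 505 ± 38.8 CPM did not pass (edgeR adjusted p = 0.137).

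Of 16 other genes known to be higher in ILC1 than in NK cells, 11 rose, 1 fell and 4 did not pass. Over all tested genes 25.7% were called higher and 23.1% lower, 48.8% in either direction. This list too was chosen with earlier results of these data known. The 16 genes had a median log2 fold change of 1.02. Asb2, part of a ubiquitin ligase, rose by 1.93 ± 0.17 (SE), and the membrane protein genes Tmem176b and Tmem176a rose by 1.89 ± 0.35 and 1.72 ± 0.40 on the log2 scale. Tnfsf10, which encodes the death ligand TRAIL, was at 28.4, 31.3 and 33.7 CPM in WT, against 97.8, 104 and 125 CPM in Eumyc, and it rose. Cxcr6, a chemokine receptor gene of liver-resident lymphocytes, rose from 6.15 ± 1.66 to 11.0 ± 4.26 CPM (SD, n = 3 each, edgeR adjusted p = 0.0437) although the groups overlapped. Il7r, the IL-7 receptor gene, was at 61.9, 82.8 and 68.2 CPM in WT, against 23.8, 57.0 and 60.9 CPM in Eumyc, and the difference did not pass although the groups did not overlap (edgeR adjusted p = 0.141). The gene that fell, Gpr183, was named after its values were seen. It had a log2 fold change of -0.71, and the call was absent without WT 1, WT 2, Eumyc 1 or Eumyc 2.

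Residency genes outside the ILC1 list went both ways. Of 20 such genes 19 were tested, 8 rose, 5 fell and 6 did not pass, with a median log2 fold change of 0.21. Over all tested genes the shares were 25.7% higher and 23.1% lower. P2rx7, an ATP-gated channel gene, had a log2 fold change of 3.80 ± 0.24 (SE), from 1.62 to 22.2 CPM on average. Litaf rose by 1.94 ± 0.10 and Isg20 by 1.74 ± 0.28 on the log2 scale. Cd69, whose product retains cells in tissue by opposing S1PR1, rose from 30.4 ± 5.95 to 48.4 ± 6.69 CPM (SD, n = 3 each, edgeR adjusted p = 0.00662). Itgae, which encodes the residency integrin CD103, went the other way, from 6.60, 7.87 and 7.13 CPM in WT to 3.21, 3.77 and 3.07 CPM in Eumyc. Itgae was 2.15-fold lower in Eumyc (edgeR adjusted p = 0.000910). Prdm1, the relative of Zfp683, fell from 127 ± 12.0 to 88.1 ± 3.76 CPM (SD, n = 3 each, edgeR adjusted p = 0.000983), whereas Zfp683 rose.

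Genes of egress and circulation, which residency programmes turn down, fell in 13 of 15 cases and rose in 1. Their median log2 fold change was -0.63, where 23.1% of all tested genes were called lower and 25.7% higher. S1pr1, the main egress receptor gene, was at 86.8, 106 and 87.1 CPM in WT, against 31.6, 35.0 and 31.9 CPM in Eumyc. Cmah, an enzyme of sialic acid hydroxylation, fell by 1.39 and S1pr5 by 0.99 on the log2 scale. The gene that rose was Tlr1, a pattern recognition receptor gene, at 0.848 ± 0.0949 and 5.88 ± 1.78 CPM (SD, n = 3 each). Of 16 conventional NK genes 11 fell, 0 rose and 5 did not pass. Klra8, the gene of the Ly49H receptor, fell by 0.98 and Klre1 by 0.82 on the log2 scale. Klra8 belongs to a family of near-identical genes that share reads, so its value is uncertain.

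**Figure D3:**
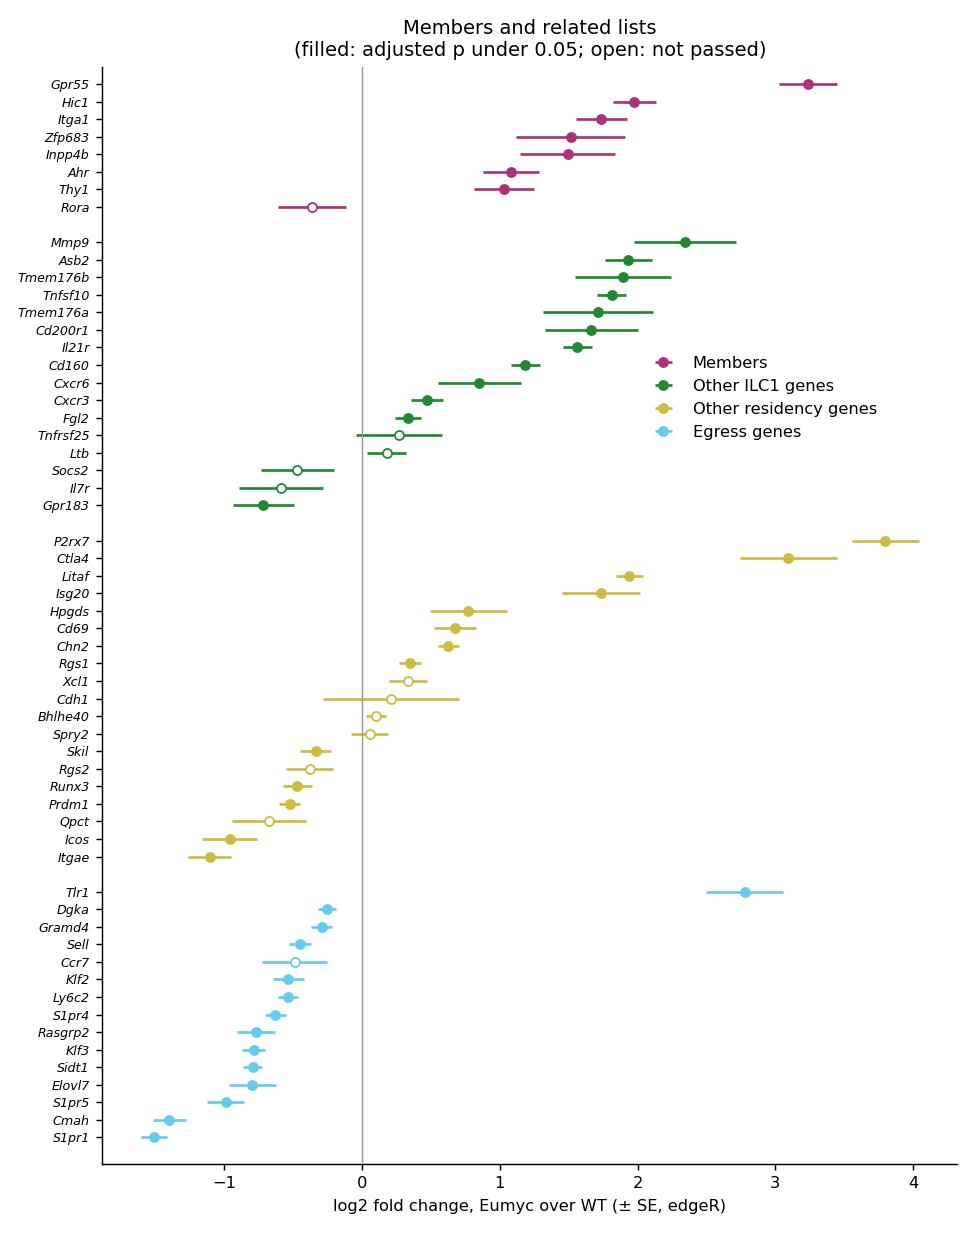
Log2 fold change of Eumyc over WT (horizontal axis, ± SE from edgeR) for the tested genes of 4 lists, filled where the adjusted p was under 0.05. The members and the other ILC1 genes lie mostly to the right of 0, the residency genes on both sides, and the egress genes to the left except Tlr1.

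Partner genes of the members were read from lists. Among 10 genes of the AHR pathway 6 were tested, 2 rose and 0 fell, where 25.7% of all tested genes rose and 23.1% fell. Arnt, the dimer partner of AHR, was at 93.0 ± 1.64 and 84.9 ± 1.85 CPM (SD, n = 3 each) and did not pass (edgeR adjusted p = 0.0618). Hsp90ab1, a chaperone gene of the unliganded receptor, had a log2 fold change of 0.57 ± 0.10 (SE) and rose. Ahrr, a target and repressor of AHR, was at 0.0681 and 0.170 CPM on average and did not reach the filter. The other gene that rose, Nqo1, was named after its values were seen and was at 0.0651 and 0.696 CPM on average. The following genes of the list were also named after their values were seen. Tiparp was at 19.2 ± 1.22 and 17.2 ± 2.13 CPM (SD, n = 3 each) and did not pass (edgeR adjusted p = 0.287). Cyp1a1, Cyp1a2 and Cyp1b1 did not reach the filter.

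Of 8 receptors for cannabinoids and lysophospholipids related to Gpr55, 7 were tested, 4 rose and 1 fell. For this and the following lists, the shares over all tested genes were 25.7% higher and 23.1% lower. Gpr34, a lysophosphatidylserine receptor gene, rose by 2.16 ± 0.21 (SE) and Gpr18 by 1.11 ± 0.09 on the log2 scale, both less than Gpr55 at 3.23. Among 10 phosphoinositide kinase and phosphatase genes near Inpp4b in function, 1 rose and 4 fell. Those that fell were PI3 kinase subunit genes, led by Pik3r5 with a log2 fold change of -0.66 ± 0.09 (SE). Hic2, the close relative of Hic1, was at 3.06 ± 0.456 and 2.38 ± 0.137 CPM (SD, n = 3 each) and did not pass. Among 11 genes of TGF-beta signalling, a pathway that can induce CD49a on NK cells, 3 rose and 5 fell. Tgfb1 rose by 0.42 ± 0.06 (SE), and the feedback inhibitor gene Smad7 fell from 88.4 ± 4.68 to 40.7 ± 4.25 CPM (SD, n = 3 each, edgeR adjusted p = 0.000142).

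The Eumyc libraries differed among themselves in part of the ILC1 genes. Zfp683, Inpp4b and Rora were each more than 2-fold higher in Eumyc 3 than in Eumyc 1, at 2.65, 2.28 and 2.23 times the level. Itga1, Hic1 and Thy1 differed by 1.07, 1.13 and 1.12 times between the same libraries, and Gpr55 and Ahr by 1.48 and 1.64 times. In the list of other ILC1 genes, Il7r, Cd200r1, Tmem176a, Tnfrsf25, Cxcr6 and Tmem176b also reached 2-fold, 6 of 16 genes. In Eumyc 10958 tested genes averaged 3 CPM or more, and of these 40, or 0.365%, reached 2-fold in this direction. Another 78 were at least 2-fold lower in Eumyc 3. Of the residency list 1 gene of 17 was 2-fold higher in Eumyc 3, Qpct, at 2.45, 4.50 and 5.34 CPM in Eumyc 1, 2 and 3. The conventional NK and egress lists had 0 genes 2-fold higher in Eumyc 3, which is no contrast with 0.365% over all genes. The 2-fold limit was set after the values were seen, and each side is a single library, so no test was made. The WT libraries differed in these genes as well. WT 3 lay above the mean of WT 1 and WT 2 for 6 of 8 members, with a median of 0.39 log2 units. It did so for 13 of 16 other ILC1 genes, with a median of 0.38, where the median over all tested genes was -0.0022. Eumyc 2 lay between the other libraries for Zfp683, Inpp4b, Rora, Ahr, Gpr55 and Thy1. Eumyc 1 was also the library with most monocyte and macrophage transcripts, whose list had a median of -0.66 log2 units in Eumyc 3 against Eumyc 1, and cell division genes were 0.51 log2 units higher in Eumyc 3. The part of either in this spread was not tested.

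**Figure D4:**
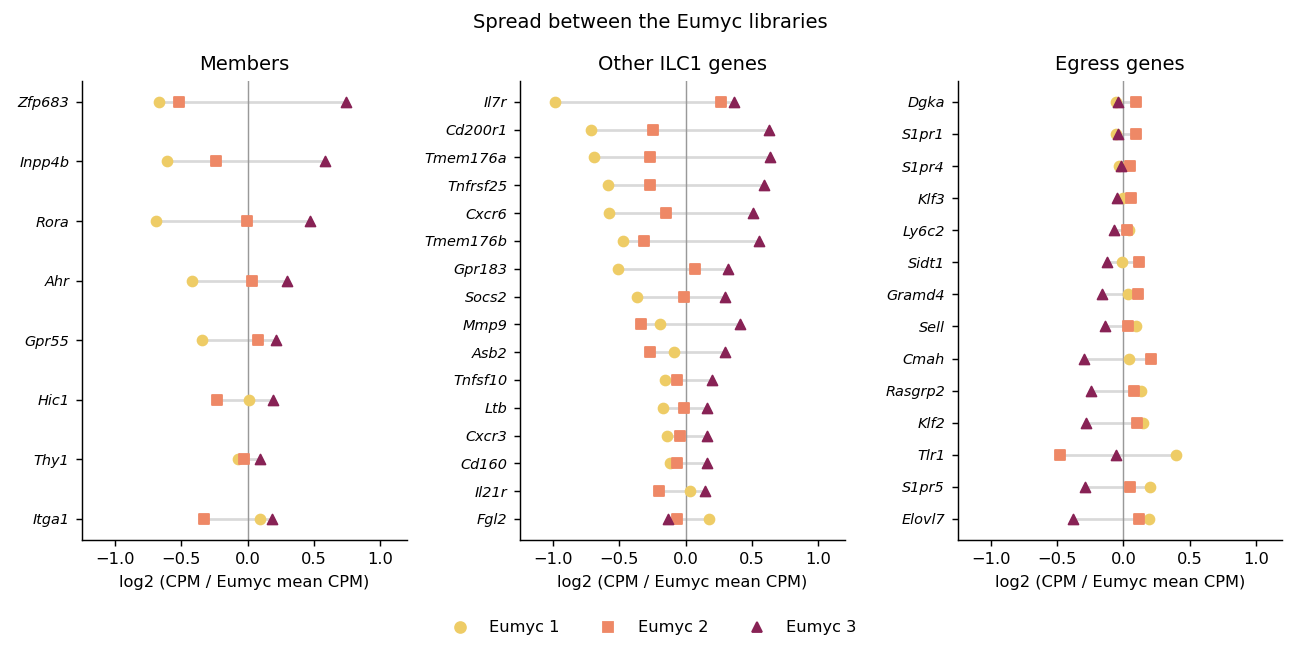
Log2 of CPM over the Eumyc mean (horizontal axis) in Eumyc 1 (circle), 2 (square) and 3 (triangle) for members, other ILC1 genes and egress genes with at least 3 CPM in Eumyc. Eumyc 3 is to the right of Eumyc 1 for all 8 members and for 15 of 16 other ILC1 genes, whereas it is to the right for 3 of the 14 egress genes drawn.

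Several members are also expressed by other cells, so markers of those cells were read in the same libraries. Itga1, Hic1, Thy1 and Rora are known in fibroblasts and mural cells. Of 11 fibroblast and mural genes 5 had 0 counts in all 6 libraries, among them the defining genes Col3a1, Dcn and Lum, and the list summed to 0.70 to 1.50 CPM in WT and 1.22 to 2.01 CPM in Eumyc. Col1a2 was at 0.822 ± 0.395 and 0.520 ± 0.122 CPM (SD, n = 3 each) and Pdgfra had counts in WT 3 only. The list gene Pdgfrb, a mural cell receptor gene, had 0 counts in WT and was at 0.604 CPM on average in Eumyc. It rose (edgeR adjusted p = 0.00497), 1 of the 2 tested genes of the list. Of all tested genes 25.7% rose. Sparc, Col1a1 and Acta2, chosen with their values known, did not reach the filter. Sparc had 0 counts in WT against 6, 17 and 43 in Eumyc 1, 2 and 3. Col1a1 averaged 0.0470 CPM in WT against 0.156 in Eumyc, whereas Acta2 averaged 0.129 against 0.0845. The part of fibroblasts and mural cells in the differences of the members was not tested. For T cells, Trac was at 9.67, 9.33 and 9.89 CPM in WT, against 10.3, 8.60 and 11.1 CPM in Eumyc. Trac did not pass, nor did Cd3e at 10.7 ± 0.674 and 9.27 ± 1.44 CPM (SD, n = 3 each). In the same T cell list Cd3g rose by 2.12 ± 0.09 (SE) and Cd3d by 1.71 ± 0.19 on the log2 scale. The T cell list summed to 524 to 534 CPM in WT and 590 to 643 CPM in Eumyc. Its largest part was Trbc1, at 261 ± 15.3 and 261 ± 10.4 CPM (SD, n = 3 each), which did not pass. Trbc2 followed at 69.2 ± 1.71 and 96.2 ± 13.2 CPM (SD, n = 3 each) and rose. Which cells these transcripts came from was not tested, so the sums are not amounts of T cells. In it 4 of 13 genes were higher and 2 lower, against 25.7% and 23.1% of all tested genes. The gamma delta T cell and NKT cell list was read as well. Gamma delta T cells lack the T cell receptor beta chain, so the sort did not exclude them by it. In that list 2 of 5 tested genes rose and 1 fell, and it summed to 150 to 159 CPM in WT and 163 to 179 CPM in Eumyc. The gamma chain constant gene Tcrg-C4 was at 16.5, 13.6 and 17.0 CPM in WT, against 57.4, 60.9 and 79.8 CPM in Eumyc, and rose by 2.08 ± 0.15 (SE) on the log2 scale (edgeR adjusted p = 0.000114). By contrast the delta chain constant gene Trdc fell from 105 ± 2.84 to 61.8 ± 5.68 CPM (SD, n = 3 each, edgeR adjusted p = 0.000249). The gamma chain constant gene Tcrg-C2 rose by 0.52 ± 0.16 (SE) on the log2 scale. Tcrg-C1, named after its values were seen, did not pass (edgeR adjusted p = 0.538). Whether these constant genes share reads was not tested. The part of these cells in the differences of the members was not tested.

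Of the ILC2 list 3 genes were tested, 1 rose and 1 fell, where 25.7% of all tested genes rose and 23.1% fell. Arg1, named after its values were seen and also a macrophage gene, rose from 0.360 ± 0.319 to 1.25 ± 0.606 CPM (SD, n = 3 each, edgeR adjusted p = 0.0307). Il1rl1, the IL-33 receptor gene, was at 0.597 ± 0.462 and 1.38 ± 0.403 CPM (SD, n = 3 each) and did not pass (edgeR adjusted p = 0.0831). Il13 was at 0 in all libraries, and Gata3, which NK cells also express, fell from 67.2 ± 5.05 to 50.9 ± 2.51 CPM (SD, n = 3 each). Of the ILC3 list, Il22 and Il17a were at 0 in all libraries, and Kit at 76.5 ± 6.58 and 91.8 ± 18.4 CPM did not pass (SD, n = 3 each, edgeR adjusted p = 0.153). Myeloid genes rose in 8 of 11 cases and summed to 856 to 987 CPM in WT and 1605 to 2198 CPM in Eumyc. Itgax made up most of the myeloid sum in every library, so the sums mainly follow this gene. Its mean went from 769 ± 48.6 to 1215 ± 55.2 CPM (SD, n = 3 each). That was a log2 fold change of 0.66, where the myeloid list had a median of 1.63. The erythroid list summed to 11.1 to 30.9 CPM in WT and 50.7 to 57.9 CPM in Eumyc. The endothelial list summed to 77.4 to 98.9 CPM in WT and 146 to 178 CPM in Eumyc, nearly all of it Pecam1, which leukocytes also express. The part of these cells in the differences of the members was not tested.

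**Figure D5:**
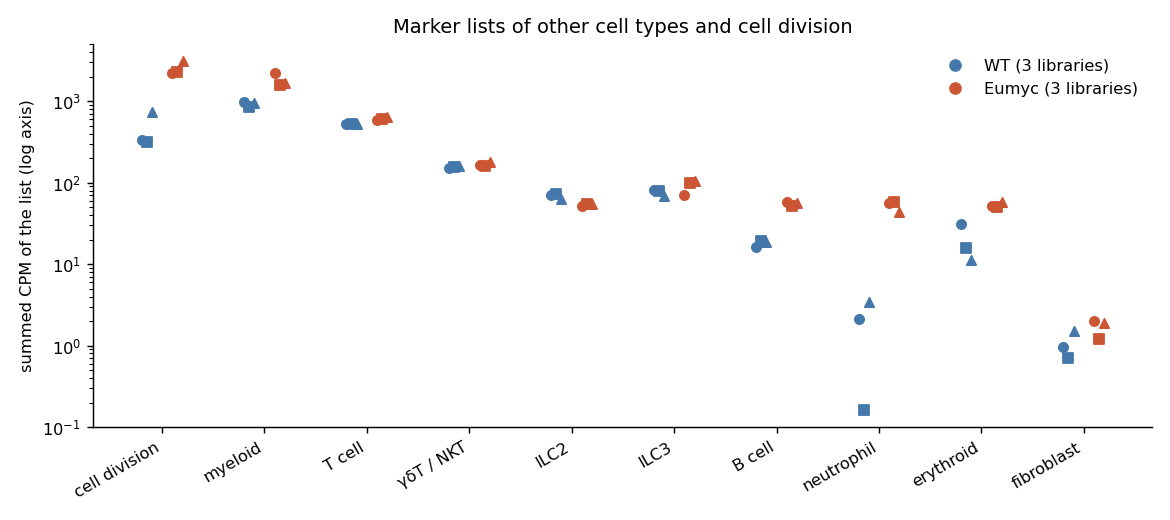
Summed CPM (log axis) of marker lists of other cell types and of cell division in each WT (blue) and Eumyc (red) library, with marker shapes for replicates 1 to 3 as circle, square and triangle. Fibroblast markers stay at or below 2.01 CPM in every library, and the cell division, myeloid, T cell, gamma delta T and NKT cell, B cell, neutrophil and erythroid lists are higher in every Eumyc library than in every WT library.

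Coordinates in the deposited table are on GRCm38 and span the whole gene. Itga1 (ENSMUSG00000042284) lies on chromosome 13 from 114958079 to 115101964, Gpr55 (ENSMUSG00000049608) on chromosome 1 from 85938318 to 85961007 and Hic1 (ENSMUSG00000043099) on chromosome 11 from 75164565 to 75169519. Zfp683 (ENSMUSG00000049410) spans 134053838 to 134058996 on chromosome 4, Inpp4b (ENSMUSG00000037940) spans 81342556 to 82127914 on chromosome 8 and Rora (ENSMUSG00000032238) spans 68653786 to 69388246 on chromosome 9. Ahr (ENSMUSG00000019256) lies on chromosome 12 from 35497974 to 35535038 and Thy1 (ENSMUSG00000032011) on chromosome 9 from 44043384 to 44048579. All 8 are protein-coding. The Itga1 span contains Pelo on the same strand, with 5224 counts in all libraries against 6868 for Itga1, and the exons of the 2 genes share 0 bases in GENCODE M21. Gpr55 shares 71 exon bases with 4933407L21Rik on the opposite strand, which had 31 counts in all libraries against 7397 for Gpr55.

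Genes whose pattern was most like a member were found by Pearson r of log2 CPM over the 6 libraries among 8973 protein-coding genes, as a description. For Itga1 they were Ssr2, Eif2b3, Mrpl35, Etv6 and Atp5c1 (r of 0.999 to 1.000), for Gpr55 Trp53i11, Gpr18, Aurka and Mapre1 (0.996 to 0.998), and for Hic1 Nbn, Il21r, Bmp2k, Fndc3b and Sdhb (0.997 to 0.998). Such likeness was common, since 1478, 1136 and 697 genes reached an r of 0.95 with Itga1, Gpr55 and Hic1, and all the libraries share the difference between the groups.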

How the data were processed

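The authors deposited 1 table of raw counts, in whole numbers, for 50686 genes in the 6 libraries. The submitters' processing notes name STAR 2.5.2, HTSeq 0.6.1 and DESeq2 1.10.1 and the builds mm10 and GRCm38. Of strand setting, annotation release and read filters these notes name none. The authors' deposited table of their comparison gives log2 fold changes and p-values per gene. Groups and replicate numbers came from the sample titles.

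The test was that of edgeR 4.0.16, run in R 4.3.3 (filterByExpr with a minimum count of 10, TMM scaling, group-only quasi-likelihood model, two-sided), adjusted by Benjamini-Hochberg over all 15458 tested genes, which held at least 99.9% of the counts of each library. CPM are TMM-scaled. The SE of a log2 fold change comes from the F statistic. Exon lengths came from GENCODE M21, cut to the deposited gene span. Log2 ratios had 0.5 CPM added. Libraries of a group differed by more than sampling noise (chi-square per degree of freedom of at least 8.005). The scripts were tested on simulated data. Alternatives were DESeq2 1.42.0, limma 3.58.1 voom, 3 other scalings, 2 other filters, the replicate number as a block, and each library left out in turn.

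The members and lists were chosen with earlier results of these data known. Named genes are the 8 members, fixed marker genes, and per list up to 4 called genes with the largest change, if 1 group averaged 5 CPM or more, and, for other cell types, the 2 most abundant in Eumyc. Other genes named are said to be chosen after their values were seen. For each of Itga1, Gpr55 and Hic1 the 5 genes most alike in pattern, with at least 10 CPM, are named. Some genes this rule names are not reported here. Figures were drawn with matplotlib 3.10.9.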

Additional observations from a re-analysis of the deposited data

How the results depend on the processing

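Of 196 values recomputed under the alternatives, 193 kept their direction and their side of the threshold or stayed within 1.5 times the count. Fold changes and ratios changed direction in 0 cases. Ratios were judged by direction alone, and counts of genes have no direction. The limit for counts was wide. It held although 29.3% of all tested genes were called without a filter, against 48.8% in the main fit. The 3 values outside the 193 came from leaving out a library. Zfp683 ranged from 0.92 to 1.79 on the log2 scale over these fits (adjusted p 0.00809 to 0.0633) and did not pass without WT 1 (1.38) or WT 2 (1.43). Rora ranged from -0.66 to -0.095 (without Eumyc 1) and passed without Eumyc 3. Over the same fits Itga1 ranged from 1.62 to 1.92, Gpr55 from 3.04 to 3.39, Hic1 from 1.88 to 2.15, Inpp4b from 1.08 to 1.80, Ahr from 0.91 to 1.27 and Thy1 from 0.87 to 1.39, and these 6 passed in every fit. The count of members called was 6 to 8, where 36.5% to 49.0% of all tested genes (5868 to 7907) were called in the same fits. The causes were not tested. Without a library the lists held 9 to 13 ILC1 genes, 11 to 13 residency genes and 13 to 15 egress genes called.

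Replicate numbers are not stated to pair the samples. Deviations from the group means of same-numbered libraries correlated at 0.040, 0.099 and 0.126 across genes, and each library correlated best with its own number, a hint from the data only. With the replicate number as a block 7860 genes passed in place of 7549, the members called stayed 7, and the log2 fold changes were 3.22 for Gpr55, 1.97 for Hic1, 1.73 for Itga1 and 1.38 for Zfp683. Precision was limited by 3 libraries a group, and counting noise weighed most on Gpr55 and Zfp683 in WT, at 81 to 165 counts.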

Other observations

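The 40 genes that were at least 2-fold higher in Eumyc 3 than in Eumyc 1 held further genes beside the 9 ILC1 genes and the residency gene Qpct given above. They are named here after their values were seen, and no test was made. Cd200r2, in the family of the ILC1 gene Cd200r1, was at 2.35, 4.33 and 9.92 CPM in Eumyc 1, 2 and 3, and the granzyme gene Gzmc was at 6.23, 7.52 and 16.5 CPM. Il2ra, the IL-2 receptor alpha chain gene, was at 7.94, 13.3 and 16.3 CPM, and Podnl1 at 30.9, 38.4 and 66.4 CPM. Immunoglobulin genes made up 7 of the 40, with Ighm at 248, 316 and 638 CPM and Igkc at 51.2, 69.4 and 138 CPM. The plasma cell gene Jchain followed with 16.7, 26.4 and 52.0 CPM. Eumyc 2 was above Eumyc 1 for 37 of the 40 genes.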
